A study of Mus musculus with 12 samples.

Results

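The 9 genes described here encode factors that the liver secretes into blood, often called hepatokines. They are Angptl4 and Angptl8 (angiopoietin-like proteins), Ahsg and Fetub (fetuin-A and fetuin-B), Inhbe and Inhbc (the beta E and beta C subunits of the activin and inhibin family), Fst (follistatin), Gdf15 (growth differentiation factor 15) and Leap2 (liver-expressed antimicrobial peptide 2). They were taken by gene symbol from the deposited expression table, where all 9 were found among 24537 genes, and all 9 were expressed highly enough to be tested (FPKM no lower than 1 in 3 or more libraries), as were 10593 genes in all. FPKM are reads scaled to exon length and to the depth of the library, so that levels can be compared between genes per length.

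Liver RNA came from 12 male C57Bl/6J mice that were 6 weeks old when the diets began and were housed singly. Control (Con) mice ate the NIH41 diet ad libitum, and calorie-restricted (CR) mice received a fortified form of it with 30% fewer calories, offered once a day at noon. There were 3 mice in each of 4 groups, Con and CR at day 25 and Con and CR at day 30, and the study's mice were given heavy water before sacrifice to label new protein. The interval between the last meal and sampling is not given in the sources used here, and fewer calories, the daily meal and the fortified diet come together in CR, so their parts cannot be told apart. Libraries are called by their column names: Con7 to Con9 and CR7 to CR9 are the mice of day 25, and Con10 to Con12 and CR10 to CR12 those of day 30. For Con10 to Con12 the day was inferred from the column numbers, as the sample labels do not name these columns.

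ANGPTL4 and ANGPTL8 restrain lipoprotein lipase, the enzyme that releases fatty acids from circulating triglyceride: ANGPTL4 is known as a fasting-induced factor and a target of the fatty acid receptor PPARA, whereas ANGPTL8 is induced by feeding and insulin. Fetuins are abundant plasma proteins of the cystatin superfamily, and fetuin-A has been linked to inhibition of the insulin receptor and to the control of mineral deposition. The inhibin beta subunits dimerize into activins, follistatin binds and neutralizes activins, GDF15 acts on appetite through the brainstem receptor GFRAL with its partner RET, and LEAP2 antagonizes the ghrelin receptor GHSR.

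Library depth, read off the smallest steps between FPKM values, was 15748834 to 23345325 reads, and 78.1% to 84.3% of them lay on exons. The FPKM of 6 hepatocyte markers (Alb, Ttr, Apoa1, Apob, Cps1 and Tat) were summed. At day 25 the sums were 43740 to 50690 in Con and 50080 to 53350 in CR. At day 30 they were 36390 to 45200 in Con and 53020 to 64060 in CR, and the groups did not overlap. Alb made up most of each sum, at 25401 to 33010 in Con and 41047 to 51723 in CR at day 30. Apoa1 went the other way at day 30, at 5860 to 6596 in Con and 4807 to 5524 in CR. Of the 6 markers, 3 were called higher and 1 lower in CR at day 30, and 2 higher and 2 lower over both days. The part of the shift of the sums in the results was not tested. CR and Con were compared with limma on log2(FPKM + 1), and a gene was called at a Benjamini-Hochberg adjusted p under 0.1 over all 10593 genes tested. The called share of all tested genes was 14.9% at day 25, 24.7% at day 30 and 40.6% over both days. Called genes over both days split into 1536 higher and 2768 lower in CR, or 2229 higher and 1995 lower after median-ratio scaling between libraries. With 3 mice a group, an exact permutation test of 1 gene at 1 day could not go below a p of 0.1, so the model over all genes was used.

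The promoter sequences of the genes that fell most under CR are shown, with 1 motif marked. Among the 9 genes, 6 had an entry among RefSeq promoter sequences (GRCm38.p6, the build of the mm10 coordinates of the table). The 250 bases before the transcript start were searched on both strands for 5 motifs whose letters were chosen after the promoters had been read: TGATGCAA, the core of the C/EBP-ATF response element (CARE) of amino acid response genes, TGTTTAC of forkhead factors, AGGTCA of nuclear receptors, AGAACA of the glucocorticoid receptor, and the E-box CACGTG. CARE letters were present in the windows of Angptl8 and Inhbe. Over the whole table they were in 260 of 32851 windows of that length (0.791%), and since the letters were chosen with these promoters in view, nothing is read from that share. In the sequences printed here, 5′ to 3′ on the strand of the gene, the capitals mark those letters, which read TGATGCAA in Angptl8, starting at position -130 from the transcript start, and TTGCATCA, the same motif on the other strand, in Inhbe, starting at position -181. Inhbc, the neighbour of Inhbe, is printed for comparison, and none of the 5 motifs was found in it.
Angptl8 (chr9:21835260-21835509, + strand): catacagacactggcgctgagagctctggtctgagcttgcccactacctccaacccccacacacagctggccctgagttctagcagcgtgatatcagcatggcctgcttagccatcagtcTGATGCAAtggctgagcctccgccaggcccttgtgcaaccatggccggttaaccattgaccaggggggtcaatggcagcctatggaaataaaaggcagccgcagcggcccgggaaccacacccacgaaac
Inhbe (chr10:127351849-127352098, - strand): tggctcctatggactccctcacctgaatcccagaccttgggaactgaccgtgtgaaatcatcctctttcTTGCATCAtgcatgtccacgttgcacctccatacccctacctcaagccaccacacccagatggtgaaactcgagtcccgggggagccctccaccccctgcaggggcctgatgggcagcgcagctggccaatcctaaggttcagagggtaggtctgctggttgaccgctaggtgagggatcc
Inhbc (chr10:127370549-127370798, - strand): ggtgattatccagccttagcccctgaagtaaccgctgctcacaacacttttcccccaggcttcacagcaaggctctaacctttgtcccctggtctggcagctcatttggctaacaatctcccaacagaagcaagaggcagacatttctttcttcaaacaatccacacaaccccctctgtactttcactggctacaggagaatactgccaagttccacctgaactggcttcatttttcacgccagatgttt
The other motifs were in the windows of other members. TGTTTAC was in the Fetub window (3.17% of all windows), AGAACA in those of Ahsg and Fetub (16.1%), and AGGTCA (14.0%) in that of Gdf15 at the start used by the table, while CACGTG (6.02%) was in the window of a second Gdf15 start. A match of letters is a description and not a binding site.

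The levels of the 9 transcripts spanned from plasma-protein abundance to near the filter. By the median over the 12 libraries, Ahsg stood at an FPKM of 4023 and Fetub at 337, followed by Angptl4 at 73.6, Leap2 at 54.8, Inhbc at 19.5, Angptl8 at 15.4, Inhbe at 14.2, Gdf15 at 1.78 and Fst at 0.754. Neighbours in this order did not overlap in any library between Ahsg and Fetub, Fetub and Angptl4, and Leap2 and Inhbc, and the ranges of all other neighbours overlapped. Relative counting error was smallest for Ahsg, Fetub and Angptl4, with at least 105059, 7461 and 1618 reads per library, whereas Gdf15 rested on 28 to 150 reads and Fst on 17 to 72. Between the lowest and the highest library, FPKM varied 1.42-fold for Ahsg and 1.43-fold for Fetub, but 4.65-fold for Angptl8, 5.39-fold for Gdf15 and 7.73-fold for Inhbe.

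**Figure D1:**
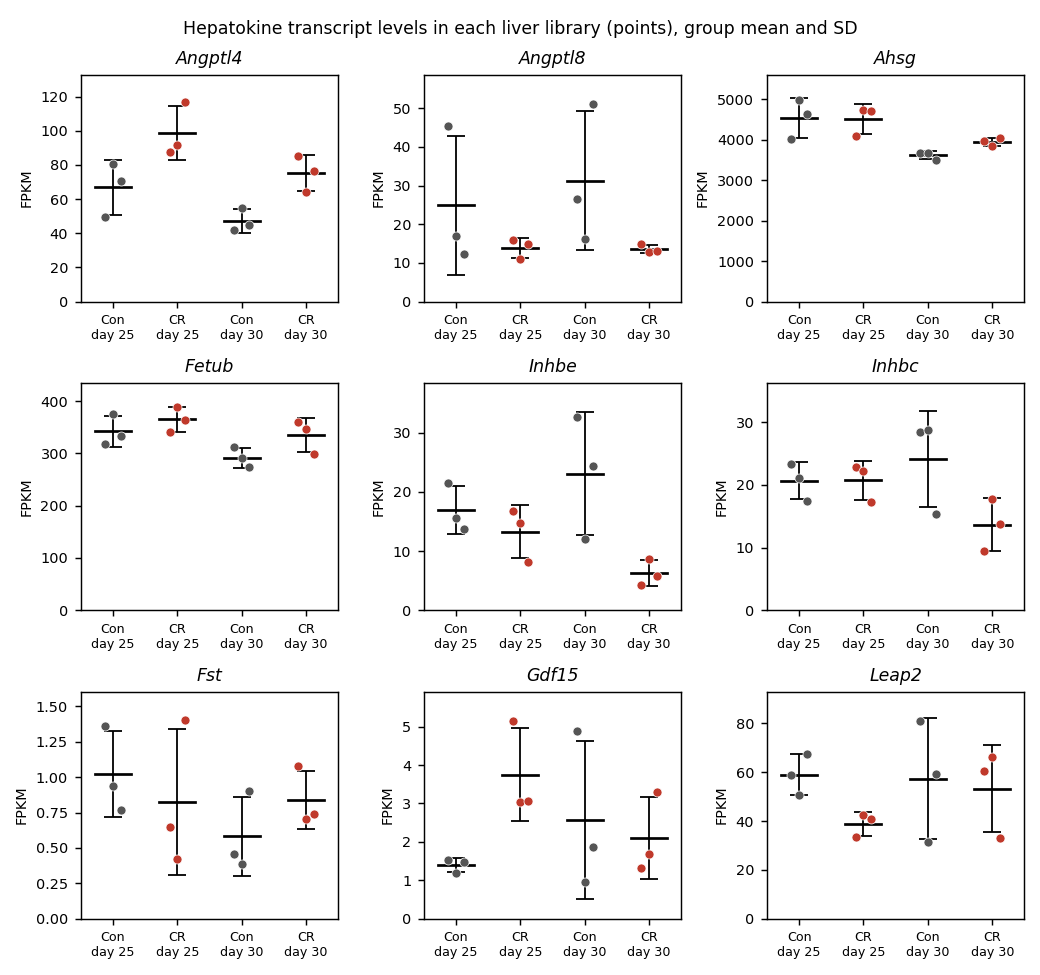
FPKM of each of the 9 transcripts (vertical axis, from 0, separate scale for each gene) in the 12 liver libraries (points, Con grey, CR red), with the mean of each group of 3 mice (bar) and its SD (whisker). Angptl4 lies above its Con group in all 3 CR mice of each day, and Inhbe and Angptl8 lie below theirs at day 30.

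Over both days, 3 of the 9 transcripts were called, with Angptl4 higher and Angptl8 and Inhbe lower in CR, beside 40.6% of all tested genes. At day 25, 2 of 9 were called, both higher (Angptl4 and Gdf15), and at day 30, 3 of 9, with Angptl4 higher and Inhbe and Inhbc lower. These shares lie near the background of 14.9% at day 25 and 24.7% at day 30. The groups did not overlap for 3 of 9 at day 25 (28.2% of all tested genes), for 4 of 9 at day 30 (36.4%) and for none over both days (12.5%). When a change of at least 2-fold was also asked for, none of the 9 remained at day 25, where 1.48% of genes did, and Inhbe was the single one at day 30 (2.21% of genes) and over both days (1.66%). The median log2 difference of the 9 was -0.01 at day 25, -0.07 at day 30 and 0.03 over both days, against -0.04, -0.07 and -0.05 for all tested genes. In bulk tissue, fewer cells of a type and less RNA per cell cannot be told apart.

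**Figure D2:**
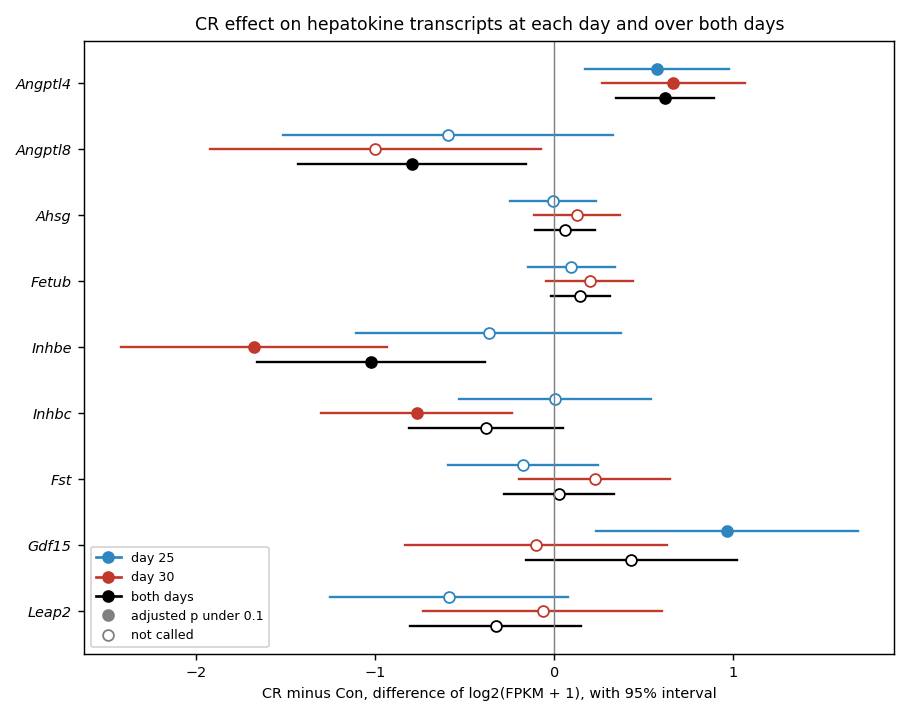
Difference between CR and Con in log2(FPKM + 1) (horizontal axis) for each of the 9 transcripts at day 25 (blue), day 30 (red) and over both days (black), with 95% intervals from limma; filled points have an adjusted p under 0.1. Angptl4 is to the right of 0 in all 3 comparisons, and Inhbe is furthest to the left at day 30, at -1.68.

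Angptl4 (chr17:33774900-33781575, - strand) was the one transcript of the 9 that was called at each day and over both in the model of all 12 libraries. Its FPKM was 49.3, 80.7 and 70.5 in the Con mice of day 25 and 87.6, 91.4 and 117 in the CR mice. At day 30 it was 41.7, 55.0 and 44.8 in Con and 85.1, 64.4 and 76.7 in CR. All 3 CR mice lay above all 3 Con mice of the same day, although the highest Con mouse of day 25 exceeded 2 of the 3 CR mice of day 30. The mean rose from 66.8 ± 16.0 (SD, n = 3) in Con to 98.7 ± 16.0 in CR at day 25, or 1.48-fold, and from 47.2 ± 6.92 to 75.4 ± 10.4 at day 30, or 1.60-fold. On the log2(FPKM + 1) scale, CR exceeded Con by 0.57 ± 0.18 (SE) at day 25 (limma, adjusted p = 0.0734), by 0.67 ± 0.18 at day 30 (adjusted p = 0.0289) and by 0.62 ± 0.13 over both days (adjusted p = 0.00285). The call over both days held when any single library was left out (adjusted p 0.00174 to 0.00825). At day 25 it was lost without Con7 (adjusted p = 0.235), Con9 (0.115), CR8 (0.101) or CR9 (0.235), and at day 30 without CR10 (0.114). The day 25 call was also lost with the 6 libraries of that day alone (adjusted p = 0.123), with no filter on low values (0.131) and with quantile normalization (0.108).

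Angptl8 (chr9:21835510-21837347, + strand) moved the other way, with a wide spread among Con mice. In Con its FPKM was 45.5, 16.9 and 12.2 at day 25 and 26.7, 16.1 and 51.2 at day 30. In CR it was 15.9, 11.0 and 14.8 at day 25 and 14.8, 12.9 and 13.2 at day 30. Thus the 6 CR mice lay within 11.0 to 15.9, below every Con mouse at day 30 but overlapping the lowest Con mouse, Con9, at day 25. Over both days the mean was 28.1 ± 16.5 (SD, n = 6) in Con and 13.8 ± 1.76 in CR, and CR was lower by 0.79 ± 0.30 on the log2(FPKM + 1) scale (log2 difference -0.79, limma adjusted p = 0.0559). In the model of all 12 libraries neither day was called, with differences of -0.59 ± 0.42 at day 25 (adjusted p = 0.425), which shrank to -0.06 without Con7, and -1.0 ± 0.42 at day 30 (adjusted p = 0.127). With the 6 libraries of day 30 alone it was called (adjusted p = 0.0832), and with no filter on low values the call over both days was lost (adjusted p = 0.111). The call over both days was lost without Con7 (adjusted p = 0.115) or without Con12 (adjusted p = 0.118), and the day 30 difference passed without Con7 (adjusted p = 0.0485) or without Con11 (adjusted p = 0.0584) and shrank to -0.58 without Con12 (adjusted p = 0.392).

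Con12, the library with the highest Angptl8, also stood apart in the sum of adipocyte markers, and Angptl8 is a gene that fat cells are known to express too. Summed FPKM of the 5 markers (Adipoq, Plin1, Cfd, Lep and Cidec) was 6.78 in Con12 and 1.16 to 3.27 in the other 11 libraries. Most of the Con12 sum was Cfd, at 3.97, which was at most 1.07 in the other libraries. Adipoq was listed at 0.795 in Con12, at 0.070 in CR10 and at 0 in the rest, and Plin1 at 0.312 in Con12 and at 0 elsewhere. Cidec did not stand apart, at 1.68 in Con12 and 0.977 to 2.86 in the others, and Lep was 0.014 in Con12 and 0.017 in Con8. Con7, the library with the next highest Angptl8, had a marker sum of 2.44 with Adipoq and Plin1 at 0 and Cfd at 1.07, the next highest after Con12. The part of other cell types in the Angptl8 levels was not tested.

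**Figure D3:**
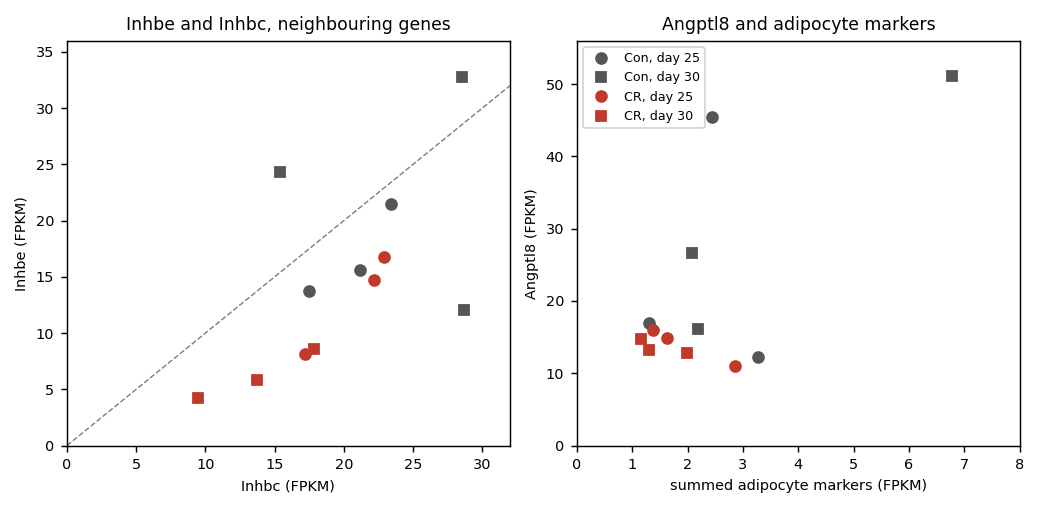
Left, FPKM of Inhbe (vertical) against FPKM of Inhbc (horizontal) in the 12 libraries, with the line of equal FPKM dashed; the CR mice of day 30 (red squares) are 3 of the 4 lowest for Inhbe, at 4.24 to 8.57. Right, FPKM of Angptl8 (vertical) against the summed FPKM of 5 adipocyte markers (horizontal); the Con library at the top right, at 51.2 and 6.78, is Con12.

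Angptl8 lies within the bounds of Dock6 (chr9:21800180-21852635), which runs on the other strand, and no exon base is shared between them in GENCODE M21. The command recorded in the table header names no strand option and the strandedness of the libraries is not given in the sources used here, so it is not known whether reads of a gene and of its antisense partner were counted apart. Dock6 FPKM was 1.79 to 2.65 across the 12 libraries and its difference over both days was 0.15 ± 0.07 (adjusted p = 0.135), so that it was far below Angptl8 in level in every library. The ratio of Angptl4 to Angptl8 per length was 5.0 to 8.30 in the 6 CR mice and 0.876 to 5.77 in the 6 Con mice, with Angptl4 below Angptl8 in Con12.

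Among 11 fixed genes of lipoprotein lipase control, all tested, 2 were higher and 1 lower in CR over both days, with a median log2 difference of 0.08. Beside these, 40.6% of all tested genes were called over both days. Lpl, the lipase itself, fell from a median FPKM of 3.00 (2.37 to 5.23) in Con to 1.29 (0.616 to 2.43) in CR, a log2 difference of -0.93 ± 0.18 (limma, adjusted p = 0.00184). Gpihbp1, which anchors the lipase on capillary endothelium, rose by 0.44 ± 0.16 (adjusted p = 0.0478), and the other gene that rose, chosen after its values were seen, was Apoa5 (0.32 ± 0.13, adjusted p = 0.0814). Levels of endothelial markers moved beside Gpihbp1: of 5, 2 were higher and none lower over both days, with sums of 30.5 to 45.1 and 29.0 to 31.9 in Con of day 25 and day 30 and 37.6 to 46.7 and 38.0 to 43.1 in CR, and their part in it was not tested.

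The fetuin genes were the most abundant and the steadiest of the 9, and neither was called in any comparison of the FPKM as deposited with all 12 libraries. Ahsg (chr16:22892015-22899451, + strand) had an FPKM of 4011, 4973 and 4626 in Con and 4092, 4729 and 4717 in CR at day 25. At day 30 it was 3676, 3670.5 and 3506 in Con and 3978, 3836 and 4035 in CR. The groups overlapped at day 25, while at day 30 all 3 CR mice were above all 3 Con mice. The 95% interval of the difference was -0.25 to 0.24 at day 25, -0.11 to 0.37 at day 30 and -0.11 to 0.23 over both days (limma, adjusted p = 0.985, 0.455 and 0.578). With quantile normalization the day 30 difference of Ahsg was 0.34, against 0.13 in the FPKM as deposited, and was called (adjusted p = 0.0580). That normalization sets each value by its rank in the library. Ahsg lay above 99.91% of tested genes by median FPKM, so its value there depends on its rank among the few highest genes.

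Fetub (chr16:22920222-22939768, + strand) begins 20770 bases beyond the end of Ahsg on the same strand. Its FPKM was 318, 376 and 333 in Con and 342, 389 and 364 in CR at day 25, and 311, 290.1 and 273 in Con and 359.6, 346 and 298 in CR at day 30. CR and Con overlapped on both days, with every CR mouse above the Con median of its day. The difference over both days was 0.15 ± 0.08 (95% interval -0.02 to 0.31, limma adjusted p = 0.162), and it passed the threshold after median-ratio scaling, at 0.22 (adjusted p = 0.0306), and without Con8 (adjusted p = 0.0886). The same scaling also brought the day 30 difference past it (0.28, adjusted p = 0.0769). Ahsg exceeded Fetub per length by 11.1-fold to 13.9-fold in all 12 libraries.

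Ahsg overlaps Gm30505 (chr16:22874983-22894386), a gene on the other strand that shares 62 exon bases with it in GENCODE M21. Gm30505 was listed at an FPKM of 126 to 195, which was 0.0316 to 0.0392 of the Ahsg level in each library, and its difference over both days was -0.03 ± 0.08 (adjusted p = 0.791). Reads of the shared bases cannot be assigned to either gene without strand.

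Of 4 other fixed genes of the cystatin superfamily, 3 were higher in CR over both days and none lower, with a median log2 difference of 0.28 against -0.05 for all tested genes. The 3 encode the histidine-rich glycoprotein and kininogens. Among all tested genes, 40.6% were called over both days. Hrg rose from a median FPKM of 709 (598 to 766) in Con to 870.5 (788 to 904) in CR, a difference of 0.32 ± 0.07 (limma, adjusted p = 0.00618). Kng2, a kininogen, rose by 0.43 ± 0.08 (adjusted p = 0.00187), and Kng1, named after its values were seen, by 0.24 ± 0.07 (adjusted p = 0.0209). Cst3, cystatin C, was at 0.09 ± 0.10 (adjusted p = 0.527).

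Inhbe (chr10:127349402-127351848, - strand) was the transcript that fell most. In Con its FPKM was 21.5, 15.6 and 13.7 at day 25 and 32.7, 12.1 and 24.3 at day 30. In CR it was 16.8, 14.7 and 8.18 at day 25 and 4.24, 8.57 and 5.84 at day 30. Groups overlapped at day 25, and at day 30 every CR mouse was below every Con mouse. The mean at day 30 was 23.0 ± 10.4 (SD, n = 3) in Con and 6.22 ± 2.19 in CR, 3.71-fold higher in Con, and 16.9 ± 4.04 against 13.2 ± 4.49 at day 25. The log2 difference was -1.68 ± 0.34 at day 30 (limma, adjusted p = 0.00654), -0.37 ± 0.34 at day 25 (adjusted p = 0.547) and -1.02 ± 0.29 over both days (adjusted p = 0.0192). Leaving out any one library kept the call at day 30 (adjusted p 0.00211 to 0.0344) and over both days (adjusted p 0.0106 to 0.0467).

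Inhbc (chr10:127356322-127370548, - strand) lies upstream of Inhbe on the same strand, with 4473 bases between its end and the start of Inhbe. Its FPKM was 23.4, 21.2 and 17.5 in Con and 22.9, 22.2 and 17.2 in CR at day 25. At day 30 it was 28.5, 28.7 and 15.4 in Con and 9.46, 17.8 and 13.8 in CR. At day 25 the groups coincided, and at day 30 they overlapped in 1 CR mouse, CR11, which lay above the lowest Con mouse, Con12. The log2 difference was 0.00 ± 0.25 at day 25 (95% interval -0.53 to 0.54), -0.77 ± 0.25 at day 30 (limma, adjusted p = 0.0508) and -0.38 ± 0.20 over both days (adjusted p = 0.159). The day 30 call was lost without CR10 (adjusted p = 0.203), Con10 (0.155) or Con11 (0.163) and with no filter on low values (0.107), and the difference over both days passed without Con9 (0.0952). Inhbe was 0.425 to 0.481 of Inhbc per length in the 3 CR mice of day 30, 0.475 to 0.732 in those of day 25, 0.736 to 0.918 in Con of day 25 and 0.421 to 1.58 in Con of day 30, with Con11 the lowest of that group.

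Fst (chr13:114452262-114458951, - strand) passed the filter through Con7, CR9 and CR10, each from another group. Its FPKM was 1.36, 0.939 and 0.768 in Con and 0.648, 0.423 and 1.40 in CR at day 25, and 0.460, 0.386 and 0.904 in Con and 1.08, 0.706 and 0.739 in CR at day 30. CR and Con overlapped on both days, and with 17 to 72 reads per library the difference over both days was 0.03 ± 0.14 (95% interval -0.28 to 0.33, limma adjusted p = 0.913).

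Of 18 other fixed genes of the activin and inhibin system, 11 passed the filter, and over both days 1 was higher and 4 were lower in CR, with a median log2 difference of -0.16. Beside these, 40.6% of all tested genes were called over both days. The largest differences were those of a pair of receptors, which moved in opposite directions. Acvr1b, a type I activin receptor, fell from a median FPKM of 4.47 (3.78 to 4.77) in Con to 2.50 (1.84 to 2.72) in CR, a log2 difference of -0.67 ± 0.08 (limma, adjusted p = 7.15e-05), and Acvr2b, a type II activin receptor, rose from 1.12 (0.807 to 1.48) to 2.07 (1.60 to 2.69), a difference of 0.56 ± 0.08 (adjusted p = 0.000381). For both receptors all 6 CR mice were apart from all 6 Con mice, as they were for 12.5% of all tested genes. The other genes that fell, named after their values were seen, were Inhba, the beta A subunit (-0.36, adjusted p = 0.0600), and the signal transducers Smad3 (-0.21, adjusted p = 0.0242) and Smad2 (-0.16, adjusted p = 0.0987). Below the filter were Inha, Inhbb, Fstl1, Fstl3, Mstn, Gdf11 and Acvr1c, the last encoding ALK7, a receptor through which activin E is known to act in adipose tissue, with an FPKM of at most 0.032.

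Gdf15 (chr8:70629393-70632456, - strand) was higher in CR at day 25 and mixed at day 30. Its FPKM was 1.54, 1.19 and 1.47 in Con and 5.14, 3.05 and 3.07 in CR at day 25. At day 30 it was 4.90, 0.954 and 1.87 in Con and 1.31, 1.68 and 3.30 in CR. All 3 CR mice were above all 3 Con mice at day 25, and the groups overlapped at day 30, where Con10 was the highest. The mean at day 25 was 2.69-fold higher in CR, 3.75 ± 1.20 against 1.40 ± 0.187 (SD, n = 3), and the log2(FPKM + 1) difference, which understates the change of a low gene, was 0.96 ± 0.34 (limma, adjusted p = 0.0963). With a replicate block of same-numbered mice, the adjusted p at day 25 was 0.00988. Of the 12 fits that each left out 1 library, 8 lost the call (those without Con7, Con8, Con9, CR7, CR8, CR9, Con12 or CR11, adjusted p up to 0.245), as did no filter on low values (0.189), a filter of 0.1 (0.123) and TPM (0.112). Neither day 30 (-0.10 ± 0.34, adjusted p = 0.859) nor both days (0.43 ± 0.27, adjusted p = 0.247) was called with all libraries, and without Con10 the adjusted p over both days was 0.0209.

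Leap2 (chr11:53422181-53423136, - strand) was separated between the groups at day 25 but was not called. Its FPKM was 58.9, 50.8 and 67.4 in Con and 33.4, 42.6 and 40.7 in CR at day 25. At day 30 it was 81.0, 31.5 and 59.2 in Con and 60.5, 66.2 and 33.0 in CR. The groups did not overlap at day 25 and were mixed at day 30, where Con11 was the lowest of all 12. The log2 difference at day 25 was -0.59 ± 0.31, which was not called in the model of all 12 libraries (limma, adjusted p = 0.258) but was with a replicate block of same-numbered mice (adjusted p = 0.0313) and with the 6 libraries of that day alone (adjusted p = 0.0487). At day 30 it was -0.07 ± 0.31 (adjusted p = 0.905) and over both days -0.33 ± 0.22 (adjusted p = 0.278), or 0.0376 without Con11. The receptor genes Ghsr, Gfral and Ret were listed at 0 in all 12 liver libraries, and Ghrl (ghrelin) and Mboat4 (its acyltransferase) were below the filter, with an FPKM of at most 1.34 and 0.026.

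**Figure D4:**
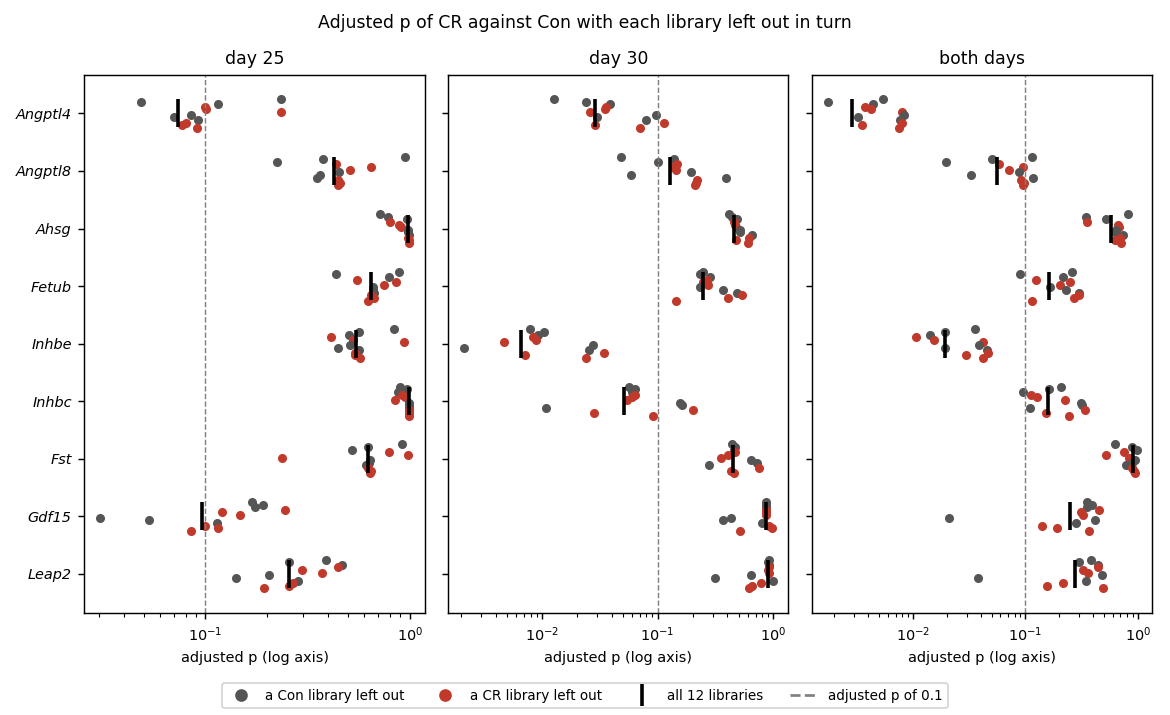
Adjusted p (horizontal, log axis) of CR against Con for each of the 9 transcripts with each of the 12 libraries left out in turn (points, grey for a Con and red for a CR library), beside the value with all libraries (black bar) and the threshold of 0.1 (dashed). Over both days the points of Angptl4 and Inhbe all lie left of the line, while Gdf15, Leap2, Fetub and Inhbc each fall left of it in 1 of 12 and Angptl8 falls right of it in 2 of 12.

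Mice were sampled at both days, so that each transcript could be asked whether its CR effect differed between them. None of the 9 passed, and 0.00944% of all genes did. Differences of the effect, day 30 minus day 25, were largest for Inhbe, at -1.31 ± 0.48 (unadjusted p = 0.0184), Gdf15, at -1.07 ± 0.48 (unadjusted p = 0.0443), and Inhbc, at -0.77 ± 0.35 (unadjusted p = 0.0454), all with a limma adjusted p of 1.00, and 366 of all 10593 genes had an unadjusted p under 0.05. The fall of Inhbe and Inhbc at day 30 and the rise of Gdf15 at day 25 were therefore not shown to differ between the days. Between the days within CR none of the 9 was called (0.321% of all genes), with Inhbe at -0.97 ± 0.34 (limma, adjusted p = 0.403) and Inhbc at -0.60 ± 0.25 (adjusted p = 0.492). Within Con none was called either (0.0% of all genes), with Ahsg at -0.32 ± 0.11 (adjusted p = 0.556) and Angptl4 at -0.47 ± 0.18 (adjusted p = 0.601); at an unadjusted p under 0.05 stood 2 of 9 in each, beside 917 of all 10593 genes in CR and 764 in Con, while voom on the recovered reads called 0 genes in Con.

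Genes of pathways known to act on some of the 9 moved unevenly. Of the 8 lists with tested genes, that of fasting, FOXO and glucocorticoid genes had the largest median difference. The lists were chosen with earlier results of these data known and were not tested as sets, so this order is a description. Of the 11 FOXO and glucocorticoid genes, 9 were higher in CR over both days and none lower, with a median log2 difference of 0.79. Of all 10593 tested genes, 1536 were called higher and 2768 lower over both days, 40.6% in all. Igfbp1, which binds insulin-like growth factors and is repressed by insulin, rose from a median FPKM of 15.1 (6.88 to 42.1) to 67.6 (36.2 to 175), a log2 difference of 2.03 ± 0.37 (limma, adjusted p = 0.00133). Fkbp5, a glucocorticoid receptor co-chaperone and target, rose from 16.3 (8.27 to 38.9) to 71.3 (50.05 to 98.0), a difference of 1.91 ± 0.23 (adjusted p = 7.13e-05).

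Of 12 genes of the PPARA pathway, which includes Angptl4, 3 were higher and 2 lower in CR over both days (median 0.06). Among all tested genes, 40.6% were called over both days. Plin2, a lipid droplet coat protein, fell from a median of 157 (141 to 203) to 90.6 (76.4 to 99.2), a difference of -0.85 ± 0.10 (limma, adjusted p = 5.63e-05), while Pdk4, an inhibitor of pyruvate dehydrogenase, rose by 0.78 ± 0.21 (adjusted p = 0.0138). Angptl4 thus moved in the direction of Pdk4 and against that of Plin2. The other genes that were higher, named after their values were seen, were Acot1 (0.53) and Ppara (0.34). Of 14 genes of insulin action and lipogenesis, the setting in which Angptl8 is induced, 13 were tested, 4 were higher and none lower (median 0.13). Thrsp, a lipogenic nuclear protein, rose from 47.0 (31.0 to 101) to 257 (138 to 387), a difference of 2.27 ± 0.17 (adjusted p = 3.14e-06). The others that rose, named after their values were seen, were Elovl6 (0.48), Pklr (0.31) and Acaca (0.25), which encode enzymes of fatty acid elongation, glycolysis and fatty acid synthesis. By day, 1 gene of the list was called at day 25, Thrsp, and 4 at day 30. Elovl6 was at 0.05 at day 25 and 0.92 at day 30, Acaca at -0.007 and 0.50, and Pklr at 0.20 and 0.43.

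Of 10 genes of the integrated stress response, which acts through ATF4 and the CARE motif and is a known inducer of Gdf15, 9 were tested, 3 were higher and 2 lower (median 0.12). Among all tested genes, 40.6% were called over both days. Ddit4, an inhibitor of mTORC1, rose from a median of 2.80 (1.40 to 6.11) to 14.8 (11.9 to 49.4), a difference of 2.26 ± 0.27 (limma, adjusted p = 6.96e-05), and Atf5 fell from 128 (73.7 to 185) to 48.4 (41.7 to 70.1), a difference of -1.17 ± 0.15 (adjusted p = 0.000148). The others called, named after their values were seen, were Sesn2 (0.47) and Ddit3 (0.28), higher, and Trib3 (-0.71), lower. Of 20 symbols fixed for other secreted hepatic factors, 19 were found. The absent symbol, Sepp1, is an older name of Selenop, which is on the list and was tested. In all, 18 were tested, Gpnmb being below the filter. Of those tested, 6 were higher and 2 lower (median 0.10), beside the same 40.6% of all tested genes. Lect2, a chemotactic hepatokine, rose from 47.1 (38.8 to 70.9) to 95.4 (64.4 to 108), a difference of 0.87 ± 0.12 (adjusted p = 0.000171), and Enho, which encodes adropin, fell by 0.98 on the log2 scale (adjusted p = 0.00559), as did Manf, named after its value was seen, by 0.40.

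**Figure D5:**
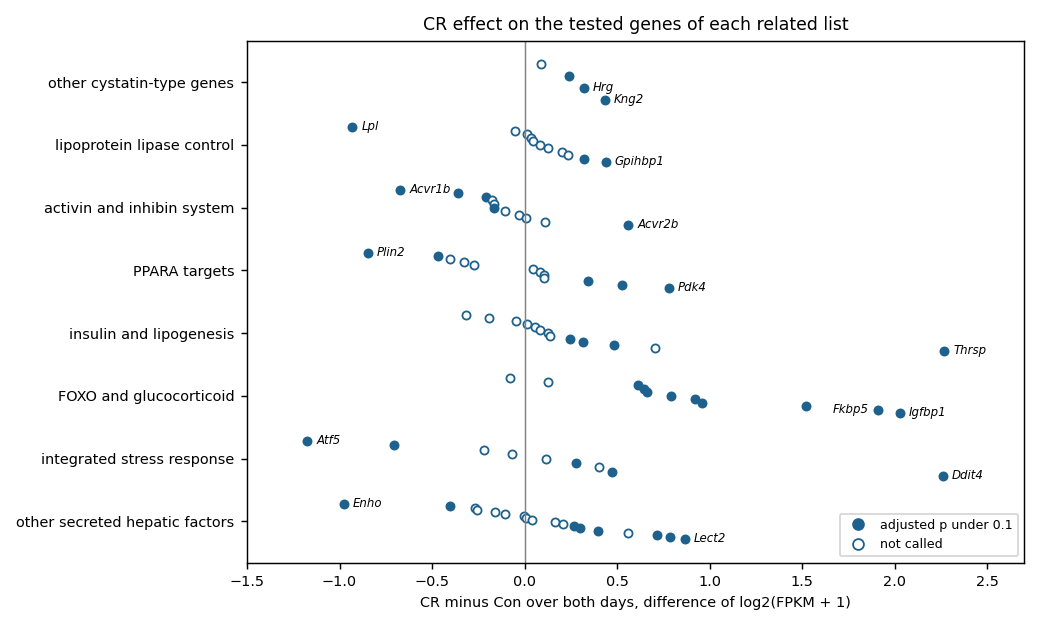
Difference between CR and Con over both days in log2(FPKM + 1) (horizontal) for every tested gene of 8 fixed lists (rows), filled where the adjusted p was under 0.1, with the largest differences of each list named (1 for insulin and lipogenesis, 2 for the others). The list of FOXO and glucocorticoid genes lies almost wholly to the right of 0, and Lpl, Acvr1b, Plin2, Atf5 and Enho are the leftmost genes of their lists.

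The transcripts whose pattern over the 12 libraries was most like that of the called members were found by Pearson r of log2(FPKM + 1), as a description of libraries that share the same diet contrast. For Angptl4 they were Il1r1, the interleukin 1 receptor (r = 0.959), and Itgb3, an integrin subunit (r = 0.943). Itgb3 was near the filter, with a mean FPKM of 0.732 in Con and 1.08 in CR. Angptl8 was followed most closely by 2610008E11Rik (r = 0.910) and Zfp182 (r = 0.895), and Inhbe by Adora1, an adenosine receptor, and Nat8f2 (r = 0.935 for each), of which Nat8f2 had a mean FPKM of 257 in Con and 161 in CR. Zfp182 was also near the filter, with a mean FPKM of 1.09 in Con and 0.805 in CR. Markers of other cells changed in some groups: of 6 Kupffer cell markers, 3 were lower and none higher at day 25 (sums of 34.4 to 56.5 in Con and 22.1 to 29.1 in CR), while at day 30, 1 was higher and none lower (30.1 to 44.6 in Con and 30.3 to 40.1 in CR), and of 6 stellate cell markers, 4 of 5 tested were higher over both days (sums of 62.1 to 68.9 and 53.5 to 69.4 in Con of day 25 and day 30, and 73.7 to 82.6 and 77.9 to 94.0 in CR). Sums of leukocyte markers were at most 2.14 and the acinar markers Prss1 and Amy2a5 were listed at 0 throughout; the part of these cells in the levels of the 9 transcripts was not tested.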

How the data were processed

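Total RNA of frozen livers was sequenced as paired-end reads by the authors, and the submitters' processing notes name CASAVA 1.8.2 and BWA with mm10. The authors deposited FPKM per gene, made with HOMER according to the table header; its version is not given in the sources used here. Groups came from the sample labels, except for Con10 to Con12. The descriptions of the Con samples of day 30 all carry the same name, which matches no column. Con10 to Con12 were placed at day 30 because their numbers follow Con7 to Con9 and match CR10 to CR12. In all, 0 library columns were left unused. Depth was obtained by turning small FPKM values back into whole reads (1500 per library, within 0.1 read of a whole number).

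Values were analysed as log2(FPKM + 1) with limma 3.58.1 (R 4.3.3; 1 model of 4 groups, moderated variance with an expression trend, Benjamini-Hochberg adjustment), after a filter of FPKM at least 1 in at least 3 libraries. Tables and plots were made with matplotlib 3.10.9, numpy 2.4.6 and pandas 2.3.3 under Python 3.11.15. The procedure was tested on simulated data. The members and lists were chosen with earlier results of these data known. All 9 members were named, with the 2 largest differences of each list, the 2 transcripts most like each member called over both days, and genes overlapping a member; a few list genes are counted but not reported here by name. Day 25 mice with the same number in their titles deviated together (correlations of 0.368, 0.306 and 0.106, against -0.287 to 0.0134 for unlike numbers). A replicate block was therefore fitted at day 25 as an alternative, although the labels describe no pairing of mice. Alternatives were a pseudocount of 0.1, a filter of 0.1 or none, 3 other scalings, no trend, 1 day only, stricter calls, voom on the recovered reads and leaving out each library. Each library came from its own mouse.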

Additional observations from a re-analysis of the deposited data

How the results depend on the processing

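No difference of the 9 transcripts between CR and Con that was called changed sign under any alternative run. At day 25, where 2 were called, 0 were called with no filter on low values, at an adjusted p under 0.05 or with a minimum of 2-fold, and 1 with a filter of 0.1, with TPM or with quantile normalization. With the 6 libraries of day 25 alone 2 were called, Gdf15 and Leap2 in place of Gdf15 and Angptl4. Leaving out 1 library gave 0 to 2 calls at day 25 (0 without Con7, Con9, CR8 or CR9), 1 to 4 at day 30 (1 without CR10) and 2 to 4 over both days. With the replicate block of same-numbered mice, 3 transcripts were called at day 25, Leap2 being added (adjusted p = 0.0313), and the pairing changed no other call; 2077 genes were called with it against 1582. A minimum of 2-fold left 1 of 3 calls at day 30 and 1 of 3 over both days. Of the values of single transcripts under the alternatives, 22 of 216 at day 25, 8 of 207 at day 30 and 6 of 198 over both days lost their call, and 2, 5 and 5 gained one; the cause was not tested. The comparisons between days and of the CR effect between days gave 0 calls among the 9 under all alternatives run. Median-ratio scaling moved the split of called genes from 593 higher and 989 lower to 929 and 799 at day 25, and from 882 and 1737 to 1319 and 1238 at day 30; quantile normalization gave 2040 higher and 1994 lower over both days. Fst had 17 to 72 reads per library and Gdf15 28 to 150; how far depth limits their comparisons was not tested.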
